A study of Ictidomys tridecemlineatus with 31 samples.

Results

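Kidney expression of the genes of purine breakdown and urate handling was followed through the year of a hibernator, the 13-lined ground squirrel, with xanthine dehydrogenase (Xdh) as the leading gene. The set was chosen by symbol and holds 10 names, Xdh, Uox, Pnp, Gda, Ada, Adk, Ampd2, Ampd3, Slc2a9 and Abcg2. Rows of the expression table were taken where the symbol matched, case ignored, and the row of highest mean was used where several matched. Of the 10 symbols, 7 were found among the 12863 genes of the table. Uox, Gda and Ada had no row under these symbols, so no level can be given for them, and a gene can lack a row through its name or through a filter on low values as well as through low expression.

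Each sample was a piece of kidney from a different squirrel. SA animals were summer active squirrels in their fattening period (5 animals). The 4 winter groups were IBA, animals rewarmed in an interbout arousal (5), Ent, animals cooling on the way into torpor (5), EAr, animals early in arousal (5), and LAr, animals late in arousal (6). SpD animals were in spring, in the cold room but no longer entering torpor (5). The 31 animals were 17 females and 14 males, and their kidneys had been perfused to clear blood. Libraries came from 2 experiments that used different kits and instruments: experiment 1 held 9 animals (3 each of IBA, Ent and SpD) and experiment 2 held 22, so that SA, EAr and LAr were seen in experiment 2 only. LAr animal K113 and SA animal K137 had been left out of the differential expression analysis by the authors and are given apart. This left 29 animals, with 4 in SA and 5 in each other group. The study followed how kidney transcripts change over the seasons and over the torpor-arousal cycle, through repeated cold, low blood flow and rewarming.

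Purines are broken down through a short chain of enzymes. AMP deaminases (Ampd2, Ampd3) turn AMP into IMP, adenosine deaminase (Ada) turns adenosine into inosine, and adenosine kinase (Adk) returns adenosine to AMP. Purine nucleoside phosphorylase (Pnp) frees the bases, guanine deaminase (Gda) makes xanthine from guanine, and xanthine dehydrogenase, a molybdenum enzyme that can be converted to the superoxide-producing xanthine oxidase, oxidizes hypoxanthine to xanthine and xanthine to urate. In most mammals uricase (Uox) of the liver then makes allantoin. The kidney handles urate with transporters that include Slc2a9 (GLUT9), which carries urate across tubule cells, and Abcg2, an efflux pump of the apical membrane. ATP loss in ischemic tissue feeds this chain with adenosine and hypoxanthine.

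Values are rlog values, a log2 scale made by the authors that shrinks differences where counts are low, with the mean difference between the 2 experiments removed. A difference of 1 is 2-fold on this scale. The scale is not per transcript length, so levels are compared between animals and never between genes. Xdh was selected on its pattern over these same animals, and its values are therefore a description with no test. For the 6 other members, limma fits across all 12863 genes with terms for state, sex and experiment gave q values, which are p-values adjusted by the Benjamini-Hochberg method, and a member was called at q under 0.001. Fitted differences are adjusted for sex and experiment and so depart from the differences of the plain means. The members were listed with earlier results of these data known. Replicates were separate animals.

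The pieces of tissue differed in their cell makeup, as read from marker genes. The mean of 10 proximal tubule markers, all present, ran from 15.05 to 15.42 in SA, 14.05 to 14.75 in IBA, 14.26 to 15.04 in Ent, 14.73 to 15.05 in EAr, 14.65 to 15.00 in LAr and 14.68 to 15.21 in SpD without animal K130. K113, K137 and SpD animal K130 stood below their groups at 13.88, 14.33 and 13.65. The same 3 animals had the highest means of the inner medulla markers (3 of 4 present, Aqp4 not), at 10.75, 11.12 and 10.55, against at most 9.83 in any other animal. K130 was kept in the 29 animals, and results that rest on it are given without it too. Depth per animal is unknown, since the table holds no counts. In tissue of this kind, fewer cells of a type and less RNA per cell cannot be told apart.

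Xdh (gene6057) was highest in the summer animals. In SA it was 11.84 in K138, 12.17 in K139, 12.19 in K140 and 11.49 in K141. In IBA the animals had 10.60, 11.15, 9.80, 9.88 and 10.40. All 4 summer kidneys lay above all 5 interbout kidneys. In Ent the values were 10.56, 11.41, 10.30, 10.64 and 10.73, in EAr 11.05, 10.20, 10.22, 11.00 and 11.16, and in LAr 10.32, 10.25, 10.94, 9.94 and 10.48. In SpD they were 10.81, 10.70, 10.06, 9.30 and 9.19, and the last of these is K130. Spring kidneys thus held both of the lowest values among the 29 animals, and no animal of any other state reached the lowest SA value.

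**Figure D1:**
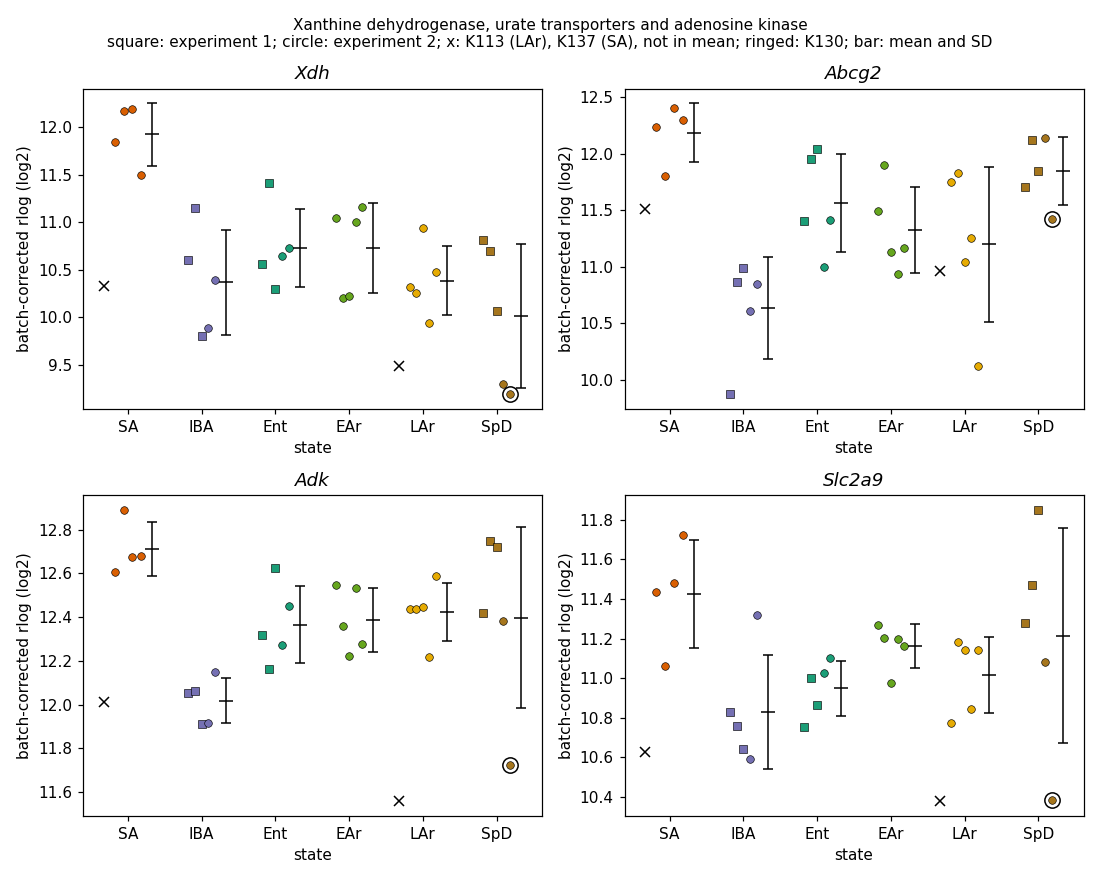
Batch-corrected rlog values (log2) of Xdh, Abcg2, Adk and Slc2a9 in each of 31 animals by state, with experiment 1 as squares, experiment 2 as circles, K113 and K137 as crosses and K130 ringed; bars give the mean and SD of the 29 animals. Xdh in the 4 SA animals lies at 11.49 to 12.19, above all other animals, and Abcg2 and Adk are lower in IBA than in SA, Ent and, for Abcg2, SpD.

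The order of the Xdh means was SA (11.92 ± 0.33, SD, n = 4), Ent (10.73 ± 0.41, n = 5), EAr (10.73 ± 0.47, n = 5), LAr (10.39 ± 0.36, n = 5), IBA (10.37 ± 0.55, n = 5) and SpD (10.01 ± 0.76, n = 5). Only the first neighbours in this order, SA and Ent, did not overlap, and their means were 1.19 apart. The remaining neighbours differed by less than their spread. Without K130 the SpD mean was 10.22 ± 0.69 (n = 4). The fitted difference SA minus SpD was 2.24 (SE 0.33), a 4.73-fold difference on the rlog scale, and IBA minus SA was -1.89 (SE 0.33), 3.70-fold. The low SpD mean rested on 2 animals, the 9.30 and 9.19 given above, while the other 3 spring animals lay within the ranges of the winter states. The mean of the 4 winter states minus that of SA and SpD was -0.42 (SE 0.18).

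Within experiment 2 alone, the fitted Xdh differences were 2.68 for SA minus SpD and -1.78 for IBA minus SA. The SpD animals of experiment 2 were the low ones, K84 (9.30) and K130 (9.19). Over all alternatives, with K130 left out among them, SA minus SpD lay between 1.90 and 2.68. SpD minus IBA was 0.14 within experiment 1 and -0.90 within experiment 2, so the lower spring level beside IBA was seen in experiment 2, where 2 animals stood in each group. The left-out SA animal K137 had 10.32, below the other 4 summer animals and inside the IBA range, and with it the SA mean was 11.60 ± 0.77 (n = 5). K113 had 9.49, below the other 5 LAr animals. The proximal tubule markers moved with Xdh between SA and IBA: their ranges did not overlap, and the median difference of the 10 markers was -0.75 for IBA minus SA. For SA minus SpD it was 0.64 with K130 included. In either pair limma called 0 of 10, where 3.15% (IBA minus SA) and 0.0544% (SA minus SpD) of all genes were called. With shares this low, 0 calls do not show an equal cell makeup. Without K130 the plain mean of the 10 markers was 15.06 in SpD and 15.23 in SA, with overlapping ranges. K84, the other low spring animal, had a proximal tubule mean of 14.68 and an inner medulla mean of 9.50. The SpD animals of experiment 1 had 15.15 to 15.21 and 7.87 to 8.42. The part of these differences in the Xdh values was not tested.

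**Figure D2:**
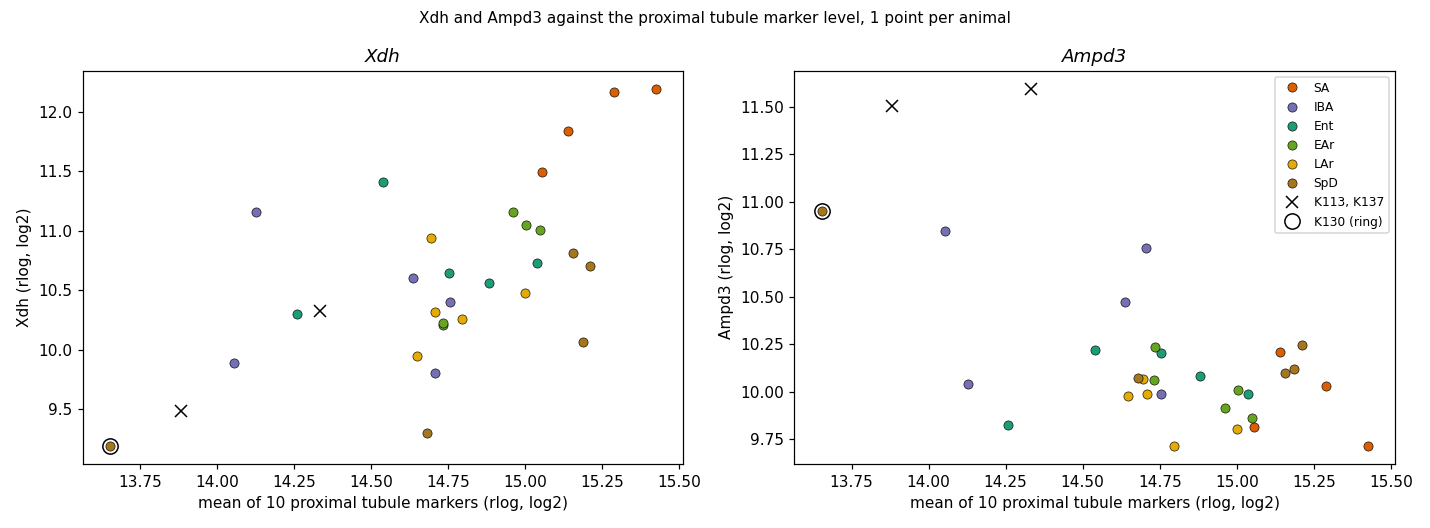
Xdh (left) and Ampd3 (right), both as rlog (log2), against the mean rlog of 10 proximal tubule markers, with 1 point per animal coloured by state, crosses for K113 and K137 and a ring for K130. SpD animals other than K130, at marker means of 14.68 to 15.21, have less Xdh than SA animals at 15.05 to 15.42. K113, K137 and K130, with marker means of 13.88, 14.33 and 13.65, have the highest Ampd3 values, 11.51, 11.60 and 10.95. Marker means below that of K137 are also seen in K104 (IBA, 14.05), K7 (IBA, 14.13) and K8 (Ent, 14.26). Ampd3 is 10.84, 10.04 and 9.82 in these, and their inner medulla marker means (not drawn) are 9.83, 7.91 and 8.44. The part of either marker list in the Ampd3 values was not tested.

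Separation of groups by range was common in this table. Among all genes, the groups did not overlap for 18.8% in IBA against SA and for 9.37% in SA against SpD. Xdh did not overlap in either pair, and since it was selected on its pattern nothing is read from that. Of the 6 other members, Adk and Abcg2 did not overlap between IBA and SA, both lower in IBA, and none was apart between SA and SpD. Adk and Abcg2 were apart between Ent and IBA, where 7.74% of genes were, Adk between IBA and LAr (13.7%) and Abcg2 between SpD and IBA (6.51%).

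Of the 6 tested members, Abcg2 and Adk were called in IBA minus SA, where 3.15% of all genes were called. Abcg2 alone was called across the 6 states (9.34% of genes) and in winter against the active states (9.73%). In the other 6 pairs limma called 0 of 6. The share of genes called was 0.0544% in SA minus SpD, 0.746% in Ent minus IBA, 0.132% in EAr minus Ent, 0.295% in LAr minus EAr, 1.43% in IBA minus LAr and 1.25% in SpD minus IBA. At an unadjusted limma p under 0.05, these 6 pairs held, in the same order, 2, 3, 0, 0, 3 and 3 of the 6 members, beside 29.1%, 29.4%, 7.16%, 8.33%, 33.4% and 26.6% of all genes. No other tool was run on this table.

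The row used for Abcg2 (gene20024) is named ABCG2_like, and whether it is the urate efflux pump was not settled. It had its lowest mean in the interbout arousal. In SA it was 12.24, 11.80, 12.40 and 12.29. In IBA it was 9.87, 10.86, 10.99, 10.60 and 10.85. No interbout animal reached the lowest summer value. In Ent, the values were 11.40, 11.96, 12.04, 10.99 and 11.41, each at or above the highest IBA value, and the SpD values were 11.71, 12.12, 11.84, 12.14 and 11.42. The arousal groups spread more widely, from 10.93 to 11.90 in EAr and from 10.12 to 11.83 in LAr. The means were 12.18 ± 0.26 in SA (n = 4), 11.85 ± 0.30 in SpD, 11.56 ± 0.43 in Ent, 11.32 ± 0.38 in EAr, 11.20 ± 0.69 in LAr and 10.63 ± 0.45 in IBA (SD, n = 5 each).

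The fitted Abcg2 difference IBA minus SA was -1.73 (SE 0.27, 95% interval -2.29 to -1.17), 3.32-fold lower in IBA, with a limma q of 0.00013. Across the 6 states the q was 0.00033, and winter minus active was -0.84 (SE 0.15, limma q = 0.00016). SpD minus IBA was 1.21 (SE 0.23, limma q = 0.0016) and Ent minus IBA 0.93 (SE 0.23, limma q = 0.012), neither past the threshold. Both differences had the same sign in each experiment: SpD minus IBA was 1.15 in experiment 1 and 1.24 in experiment 2, and Ent minus IBA 1.06 and 0.66. SA minus SpD was 0.52 with a 95% interval of -0.05 to 1.08. The IBA minus SA call was lost in all 31 animals (limma q = 0.0013), in experiment 2 alone (q = 0.0061), in a fit of the 2 groups alone (q = 0.054) and without IBA animal K104 (q = 0.0010), with the difference between -2.08 and -1.50 over all alternatives. The call across states was lost in all 31 animals, in experiment 2 alone and without K104 (IBA), K138 or K140 (both SA), and the winter call in experiment 2 alone (q = 0.0031).

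The Abcg2 row carries the table's name ABCG2_like, and the table holds 3 rows of this name or of ABCG2. The names of all 3 rest on a match to human transcripts, and which of them is the counterpart of Abcg2 was not settled. How similar the 3 transcripts are was not examined here, so it is also uncertain whether reads were split between them. Over the 31 animals the 3 rows had means of 11.4, 7.64 and 7.89. Of the 2 minor rows, gene20021 is the one named plain ABCG2, and gene20019 is named ABCG2_like. They differed between IBA and SA by 0.23 (limma q = 0.20) and 0.21 (q = 0.24). Both differences were positive where that of the main row was negative, and neither was called. Both minor rows were above their groups in K113, K137 and K130.

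Adk (gene9186), which returns adenosine to AMP, was also lowest in IBA, and its SD was between 0.10 and 0.18 in each state but SpD. In SA it was 12.61, 12.89, 12.68 and 12.68. In IBA it was 12.05, 12.06, 11.91, 11.92 and 12.15. The highest interbout animal was below every summer animal, and below every Ent animal (12.32, 12.17, 12.62, 12.27 and 12.45) and every LAr animal (12.44, 12.44, 12.45, 12.22 and 12.59). EAr ran from 12.22 to 12.55, and SpD gave 12.42, 12.75, 12.72, 12.38 and, in K130, 11.72. The means were 12.71 ± 0.12 in SA (n = 4), 12.02 ± 0.10 in IBA, 12.37 ± 0.18 in Ent, 12.39 ± 0.15 in EAr, 12.43 ± 0.13 in LAr and 12.40 ± 0.41 in SpD (SD, n = 5 each), with SpD at 12.57 ± 0.19 (n = 4) without K130.

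The fitted Adk difference IBA minus SA was -0.83 (SE 0.14, 95% interval -1.12 to -0.54), 1.78-fold lower in IBA, with a limma q of 0.00026. IBA minus LAr was -0.53 (SE 0.13, limma q = 0.0090), and the test across states gave 0.0024. Winter minus active was -0.26 (limma q = 0.012), became -0.33 and called without K130 (q = 0.00031), and was -0.10 in experiment 2 alone (q = 0.39). SpD minus IBA was 0.59 within experiment 1 and 0.08 within experiment 2, the experiment that holds K130. The IBA minus SA call was lost in all 31 animals (q = 0.025), in experiment 2 alone (q = 0.0036), in a fit of the 2 groups alone (q = 0.037) and without K104 (IBA, q = 0.0019), K139 (SA, q = 0.0016) or K140 (SA, q = 0.0010). The difference stayed between -0.91 and -0.68. Other marker lists differed widely in their median IBA minus SA difference, with 0 markers of any list called, where 3.15% of all genes were. It was 0.11 for inner medulla, -0.04 for endothelium, -0.04 for macrophage, -0.05 for collecting duct principal cell and -0.18 for thick ascending limb markers. Intercalated cell and fibroblast markers and the 1 fat cell marker present had -0.31, -0.29 and -0.29. The remaining lists were lower. For the 4 podocyte markers, all present, the median difference was -0.85, with list means of 12.00 to 12.40 in SA and 10.45 to 11.99 in IBA. It was -0.70 for the 2 distal convoluted tubule markers present of 3 (without Pvalb; SA 10.53 to 10.99, IBA 9.56 to 10.61), -0.96 for the 1 lymphocyte marker present of 6 (SA 9.68 to 10.41, IBA 8.84 to 9.63) and -1.07 for the 2 red blood cell markers present of 8 (SA 10.25 to 11.32, IBA 8.99 to 11.14). The part of these and of the proximal tubule markers in the Xdh, Abcg2 and Adk results was not tested.

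**Figure D3:**
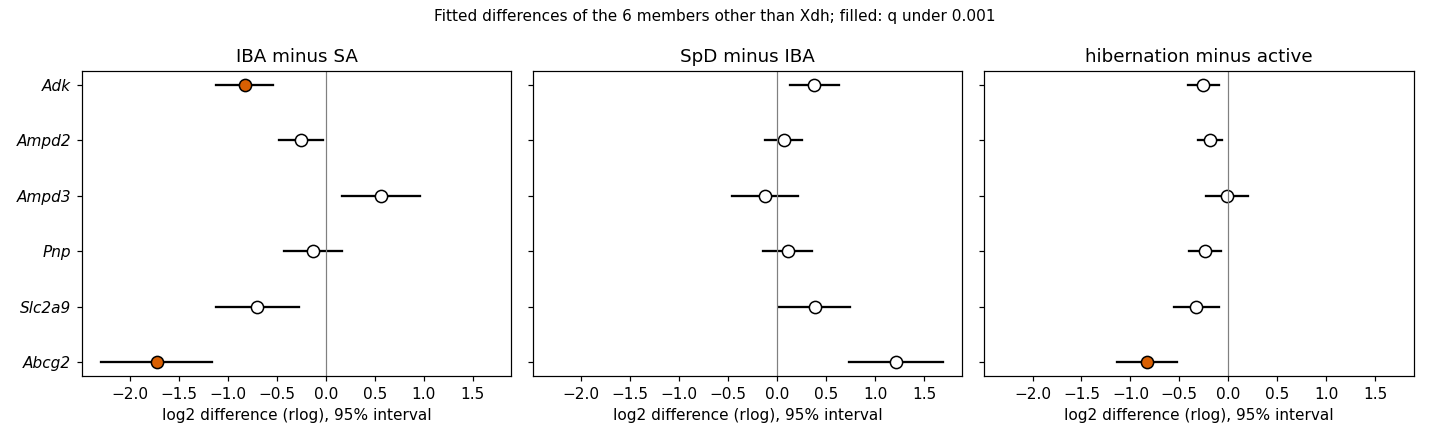
Fitted log2 differences on the rlog scale with 95% intervals for the 6 tested members in IBA minus SA, SpD minus IBA and winter minus active states (titled hibernation minus active), in 29 animals; filled points have a limma q under 0.001. Abcg2 (-1.73) and Adk (-0.83) are filled in IBA minus SA and Abcg2 (-0.84) in winter minus active, while Ampd3 has a positive IBA minus SA difference of 0.56.

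Slc2a9 (gene2933), the urate transporter, had values in the same order of SA above IBA, without passing the threshold. SA animals ran from 11.06 to 11.72, IBA from 10.59 to 11.32 with 4 of 5 at or below 10.83, Ent from 10.75 to 11.10, EAr from 10.97 to 11.27 and LAr from 10.77 to 11.18. SpD values were 11.28, 11.47, 11.85, 11.08 and, in K130, 10.39. The means were 11.43 ± 0.27 in SA (n = 4), 10.83 ± 0.29 in IBA (n = 5) and 11.21 ± 0.54 in SpD (SD, n = 5), or 11.42 ± 0.33 (n = 4) in SpD without K130. IBA minus SA was -0.70 (SE 0.21, 95% interval -1.12 to -0.28, limma q = 0.017), and -0.42 (q = 0.37) in a fit of the 2 groups alone. Winter minus active was -0.33 (SE 0.11, limma q = 0.025), -0.43 without K130 (q = 0.0013) and -0.04 in experiment 2 alone (q = 0.82). The difference SpD minus IBA was 0.74 within experiment 1 and -0.17 within experiment 2.

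Ampd3 (gene10093), the AMP deaminase isoform best known from red blood cells, had its highest values in 3 animals that stood apart. IBA values were 10.47, 10.04, 10.76, 10.84 and 9.99, with a mean of 10.42 ± 0.40 (SD, n = 5). SA ran from 9.71 to 10.21, Ent from 9.82 to 10.22, EAr from 9.86 to 10.23 and LAr from 9.72 to 10.07. SpD animals had 10.10, 10.25, 10.12, 10.07 and, in K130, 10.95. Among the 29 animals, IBA thus had 3 above all SA, Ent, EAr and LAr animals and 2 within their range. IBA minus SA was 0.56 (SE 0.19, limma q = 0.036) and IBA minus LAr 0.59 (SE 0.18, limma q = 0.026), neither past the threshold. In all 31 animals, with K113 and K137 back in LAr and SA, these were 0.23 (q = 0.71) and 0.33 (q = 0.56), and without K130 they were 0.46 (q = 0.047) and 0.50 (q = 0.031).

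Ampd2 (gene20549), the AMP deaminase found in most tissues, and Pnp (gene24004) varied least between states. Ampd2 means lay between 10.28 ± 0.21 in Ent (n = 5) and 10.61 ± 0.14 in SA (SD, n = 4), with single animals from 9.99 to 10.75. Pnp means lay between 9.04 ± 0.08 in LAr (n = 5) and 9.46 ± 0.18 in SA (SD, n = 4), with SpD at 9.42 ± 0.35 (n = 5) or 9.30 ± 0.24 without K130 (n = 4). The Pnp values ran from 8.95 to 9.14 in LAr and from 9.21 to 9.63 in SA. Winter minus active was -0.19 for Ampd2 (SE 0.06, limma q = 0.018) and -0.24 for Pnp (SE 0.08, limma q = 0.021), and neither was called in any comparison. Without K130 the Pnp difference was -0.17 (q = 0.059).

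**Figure D4:**
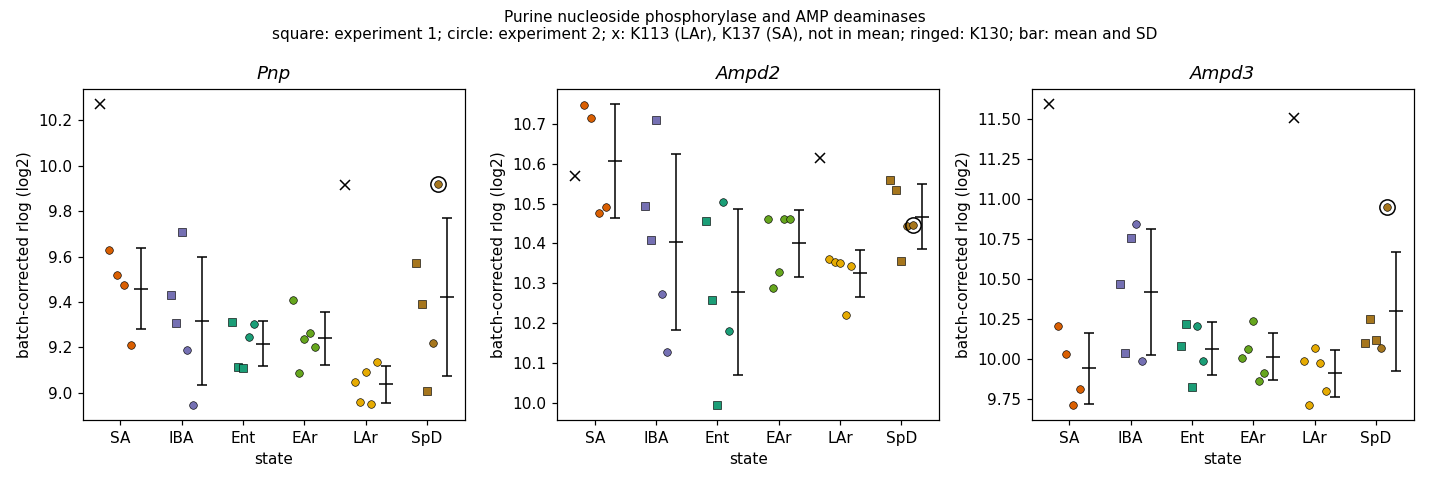
Batch-corrected rlog values (log2) of Pnp, Ampd2 and Ampd3 in each of 31 animals by state, marked as squares (experiment 1), circles (experiment 2), crosses (K113, K137) and a ring (K130); bars give the mean and SD of the 29 animals. Ampd3 is 11.60 in K137 and 11.51 in K113, above all other animals, and Pnp is 10.27 in K137, 9.91 in K113 and 9.92 in K130, above all other animals too.

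K113, K137 and K130 departed from their groups in the same direction for 5 of the 7 members. Against the other animals of the group, Ampd3 was higher by 1.60 in K113, 1.65 in K137 and 0.82 in K130, and Pnp by 0.88, 0.82 and 0.62. Adk was lower than the group mean, with differences of -0.87, -0.70 and -0.84, as were Slc2a9 (-0.64, -0.80 and -1.03) and Xdh (-0.90, -1.60 and -1.03). All 15 of these values lay outside the range of the rest of their group. Abcg2 was below its group in K137 and K130 and within it in K113, and Ampd2 was above its group in K113 only. The 3 animals were also those with the lowest proximal tubule and the highest inner medulla marker means of their groups, and the part of these in the member values was not tested.

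Over the 29 animals, which differ in state, experiment and cell makeup and so are no independent set, the members moved together only in part. Pearson's r was 0.74 between Adk and Slc2a9, 0.69 between Ampd2 and Pnp, -0.70 between Adk and Ampd3 and -0.57 between Ampd3 and Slc2a9. For Xdh it was 0.55 with Adk, 0.46 with Slc2a9, 0.26 with Abcg2 and 0.13 with Pnp. The 5 genes whose level was most like that of Xdh among all genes with a symbol were Ctsv (r = 0.811), a lysosomal protease, Maoa (0.800), the mitochondrial monoamine oxidase, Ncoa4 (0.791), which carries ferritin to lysosomes, Kynu (0.780), a kynurenine pathway enzyme, and Vnn1 (0.772), a pantetheinase. Each had its highest mean in SA, as Xdh did, with Ctsv at 15.25 in SA and 14.19 in SpD and Maoa at 11.81 and 10.87. The 3 genes least like it were Usp28 (-0.775), Mras (-0.773) and Trip10 (-0.764), each lowest in SA. All of these genes were picked by their r with Xdh over the same animals, so their SA levels are no separate result.

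The rest of the purine and urate pathway was read from 8 lists of 95 symbols that are not members, of which 65 were present. Across the 6 states 6 of 65 were called (9.34% of all genes were), in IBA minus SA 4 (3.15%), all lower in IBA, and in winter minus active 9 (9.73%), of which 3 were higher and 6 lower. The 4 lower in IBA than in SA were Nt5e, Slc16a9, Suox and Entpd5, the last named after its values were seen. In all 31 animals these counts were 2, 0 and 6, beside 5.58%, 0.381% and 7.24% of all genes. In experiment 2 alone they were 7, 1 and 5 (9.22%, 1.03% and 9.62% of genes), and without K130 they were 6, 4 and 8 (9.24%, 3.43% and 10.1%).

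Among 18 nucleotidases and nucleotide hydrolases of 24 listed, 2 were called across states. Nt5e (CD73, gene8222), the surface enzyme that makes adenosine from AMP, was 12.53 ± 0.03 in SA (n = 4), 11.81 ± 0.64 in SpD (n = 5) and 11.18 ± 0.15 in IBA (SD, n = 5). Its SpD mean includes K130, and no SpD value without K130 is given for Nt5e. IBA minus SA was -1.47 (SE 0.22, limma q = 6.3e-05). Entpd7 (gene17703), a nucleoside triphosphate hydrolase of inner membranes, was 8.68 ± 0.15 in SA (n = 4) and 7.90 ± 0.10 in LAr (SD, n = 5), and winter minus active was -0.38 (SE 0.07, limma q = 0.00027). Entpd5 was lower in IBA than in SA by a difference of -0.70 (SE 0.11, limma q = 0.00013). The median IBA minus SA difference of the 18 was -0.20, against 0.03 over all genes.

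Xdh depends on the molybdenum cofactor, and 6 of 9 symbols for its synthesis and its other oxidases were present, without Mocos, the sulfurase that activates Xdh. Suox (gene18083), sulfite oxidase, was 11.27 ± 0.16 in SA (n = 4) and 11.17 ± 0.18 in SpD (n = 5) and lay between 10.39 and 10.62 in the 4 winter means. Winter minus active was -0.71 (SE 0.08, limma q = 1.2e-06). Suox was thus near its summer level in spring. Xdh, given as a description with no test, was lower in each spring animal than in the 4 SA animals kept. The left-out SA animal K137 (10.32) lay inside the spring range of 9.19 to 10.81. Mocs3 (gene8597), which activates the sulfur carrier in cofactor synthesis, was 7.95 ± 0.09 in EAr and 8.61 ± 0.06 in LAr (SD, n = 5 each), a rise of 0.66 (SE 0.07, limma q = 5.7e-07), and was the single list gene called between the arousal stages.

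**Figure D5:**
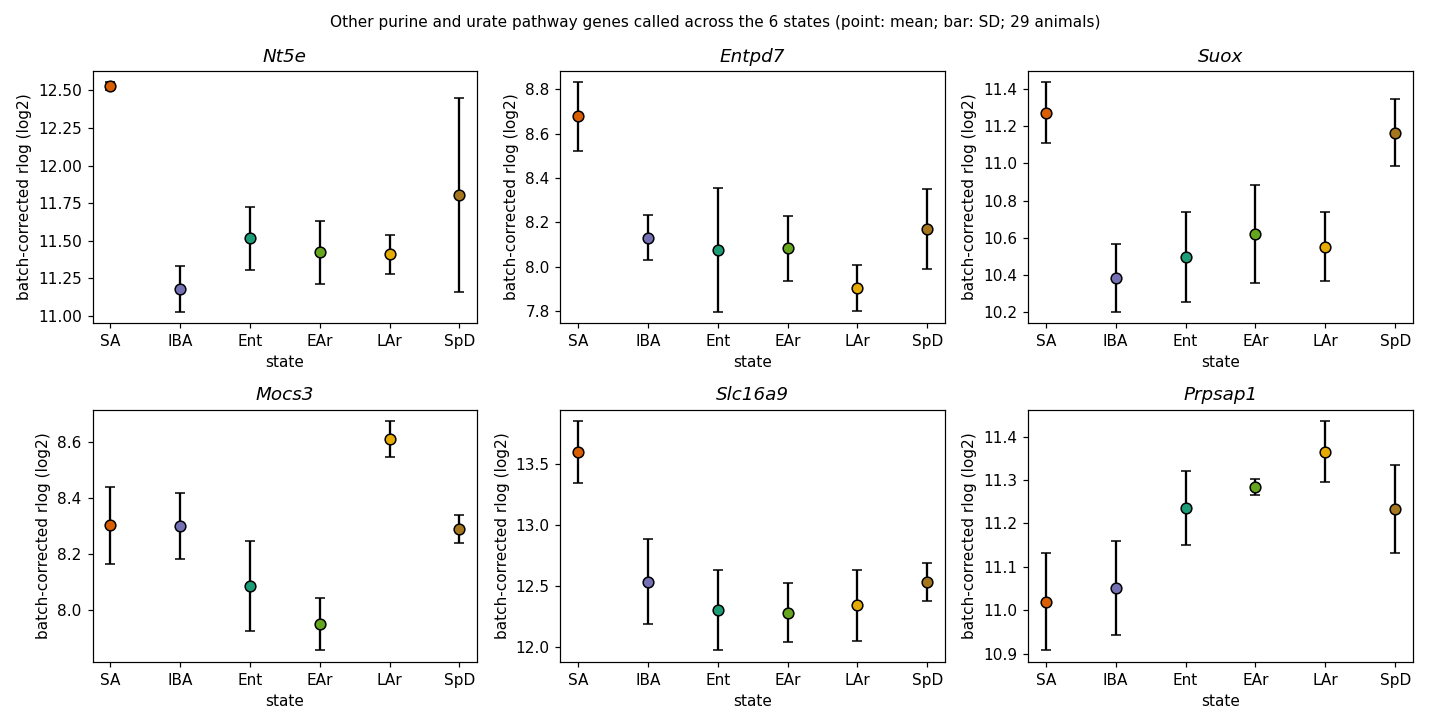
Mean and SD of batch-corrected rlog (log2) by state in 29 animals for the 6 pathway genes called across states, Nt5e, Entpd7, Suox, Mocs3, Slc16a9 and Prpsap1. Nt5e, Entpd7 and Slc16a9 have their highest mean in SA (12.53, 8.68 and 13.60), Suox is high in SA and SpD (11.27 and 11.17), and Mocs3 is highest in LAr (8.61).

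Of 11 other genes of urate transport present of 17, Slc16a9 (gene16824), a monocarboxylate transporter, was called across states. It was 13.60 ± 0.26 in SA (n = 4), 12.54 ± 0.35 in IBA (n = 5) and 12.53 ± 0.16 in SpD (SD, n = 5), with its highest mean in SA, as Xdh had. Its IBA minus SA was -1.18 (SE 0.19, limma q = 0.00018), and SA minus SpD was 1.18 (limma q = 0.0022), which missed the threshold. The median IBA minus SA difference of the 11 was -0.68, with the proximal tubule markers at -0.75. In winter minus active, Slc16a9 (-0.70) and Slc22a13 (-0.90, an organic anion transporter named after its values were seen) were lower.

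The 3 list genes higher in winter belonged to purine synthesis, salvage and the GMP branch. Of 9 synthesis genes present of 10, Prpsap1 (gene15293), a regulatory partner of phosphoribosyl pyrophosphate synthetase, was called across states (limma q = 0.00055) with means from 11.02 in SA to 11.37 in LAr. Winter minus active was 0.21 for Atic (SE 0.04, limma q = 0.00040), which makes IMP, 0.29 for Aprt (SE 0.05, limma q = 0.00036), which salvages adenine, and 0.54 for Impdh1 (SE 0.10, limma q = 0.00033), which starts the branch to GMP. These 3 were named after their values were seen. Gmpr, which runs from GMP back to IMP, was lower in winter by a difference of -0.26 (SE 0.04, limma q = 9.7e-05), and was named after its values were seen too. Of 15 AMP and GMP branch symbols 12 were present and 0 were called across states, while 8 had a limma q under 0.05, as did 46.1% of all genes. Salvage had 4 of 6 present, with 0 called and 3 under 0.05. Of 11 adenosine receptor and nucleoside transporter symbols 5 were present, none of them a receptor, with 0 called and 1 under 0.05. None of the 3 allantoin pathway symbols was present.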

How the data were processed

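Kidney RNA of 31 squirrels was sequenced. The authors used cutadapt to trim reads and hisat2 to take out mitochondrial ones, quantified transcripts with Salmon on HiC_Itri_2, summed them to genes with tximport, kept genes with an rlog of at least 7 in at least 4 of 5 animals of a group, and corrected for experiment with limma's removeBatchEffect. What was deposited is the authors' batch-corrected rlog, in log2 units, from 4.11 to 19.8 (medians of animals 9.74 to 9.88), with no counts, so depth and counting error are unknown. Versions of these tools are not given in the sources used here.

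The authors' DE test used uncorrected counts, not used here. In its place limma 3.58.1 (R 4.3.3) was fitted to 29 animals with state, sex and experiment as terms and an intensity trend, with Benjamini-Hochberg adjustment over 12863 genes within each of 9 comparisons (7 pairs of states, winter against active, and across the 6 states) at q under 0.001. Winter is the equally weighted mean of IBA, Ent, EAr and LAr, and active that of SA and SpD. The authors' correction shifted all animals of an experiment alike, gene by gene, so with experiment as a term it leaves the fitted differences as they were, while plain means by state keep it. The model was tested on simulated data drawn without effects of sex, experiment or cell makeup, so its behaviour under these was not tested. Figures were drawn with matplotlib 3.10.9.

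Named genes are all members, of each pathway list at most 3 genes called across states, and the 5 most and 3 least like Xdh by Pearson's r. Entpd5, Slc22a13, Atic, Aprt, Impdh1 and Gmpr, called in a pair or in winter against active, were added after their values were seen. The members and lists, written from general knowledge, were chosen with earlier results of these data known. The lowest value of any member was 8.95 in any animal, so no member passed the filter through a single state. No sequence or genome of the authors' build was used, so neither positions nor sequences are given. Alternatives were other animals, terms, trends, weights, filters, centring, a q of 0.05 and each animal left out.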

Additional observations from a re-analysis of the deposited data

Results flagged for a closer look

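Of 56 groups of member values tested for an animal far from the rest (Dixon's test, where chance flags about 1 in 20 groups), 7 were past the limit. The groups share animals, and those of all 31 animals include K113 and K137, which the authors had left out as outliers. The 7 can therefore not be set against the chance rate. In the 29 animals these were Ampd2 in LAr, where K115 was lowest at 10.22 with the nearest animal at 10.34, and Ampd3 in SpD, where K130 was highest at 10.95 with the nearest at 10.25. With all 31 animals, K113 in LAr was the highest for Pnp (9.91, nearest 9.14), Ampd2 (10.62, nearest 10.36) and Ampd3 (11.51, nearest 10.07) and the lowest for Adk (11.56, nearest 12.22), and K137 in SA was the highest for Ampd3 (11.60, nearest 10.21).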

How the results depend on the processing

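Of the member differences printed above, that of Slc2a9 in SpD minus IBA, 0.38 in the 29 animals, reversed to -0.17 in experiment 2 alone, and the cause was not tested. No other reversed under the alternatives, while Xdh in SpD minus IBA was -0.35 in the 29 animals and 0.14 within experiment 1. At a looser q of 0.05, limma called 2 of the 6 tested members across states, 1 in SA minus SpD, 4 in IBA minus SA, 1 in Ent minus IBA, 2 in IBA minus LAr, 2 in SpD minus IBA and 5 in winter minus active, where 46.1%, 10.5%, 22.9%, 13.1%, 18.0%, 11.9% and 33.4% of all genes passed. The 1 in SA minus SpD was Adk, and that count includes K130. Without K130, 0.739% of all genes passed 0.05 in this pair. Over all alternatives the Adk difference there lay between 0.21 and 0.66, with a limma q from 0.0053 to 0.42. In all 31 animals limma at q under 0.001 called 0 across states and 0 in IBA minus SA. In experiment 2 alone it called 0 across states, 0 in IBA minus SA and 0 in winter minus active, with fewer animals. A fit of IBA and SA alone called 0, also with fewer animals. With animal weights it called 2 across states (Abcg2 and Adk), 1 in Ent minus IBA (Abcg2), 1 in SpD minus IBA (Abcg2) and 2 in winter minus active (Abcg2 and Adk), and the cause was not tested. With 1 animal left out the counts ran from 0 to 2 across states (0 without K104, K138 or K140, and 2 without K130, K167 or K5, which is Ent animal 64), 0 to 2 in IBA minus SA (0 without K104, 1 without K139 or K140), 0 to 1 in SpD minus IBA (1 without K116 of LAr, Abcg2) and 1 to 2 in winter minus active (2 without K130). The Xdh difference lay between -2.06 and -1.51 for IBA minus SA and between 1.90 and 2.68 for SA minus SpD over all alternatives. The counts over the pathway lists in all 31 animals, in experiment 2 and without K130 were chosen after seeing the data. No paired analysis was possible because each animal has its own number and gave 1 sample.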
